A study of Saccharomyces cerevisiae with 12 samples.

Results

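The genes described here encode the proteins of the cytosolic ribosome of the budding yeast Saccharomyces cerevisiae. They were taken as the array probes whose gene symbol begins with RPL (large subunit), RPS (small subunit) or RPP (the acidic stalk) followed by a digit, with mitochondrial ribosomal proteins and the RNase P subunit RPP1 left out. All 137 such genes of the RefSeq annotation had a probe. A probe whose name covers 2 gene copies counts as 1 member, so the 137 genes form 123 members of the 6746 features of the array: 68 RPL, 50 RPS and 5 RPP members, of which 18 carry a combined name such as RPL41A/RPL41B. A gene can stand in 2 members, as RPL19B does, which has a probe of its own and is also covered by RPL19A/RPL19B. A further 98 probes carry the symbol of a ribosomal protein gene behind a tag (42 OCH, 48 DS100 and 8 US100). The files do not explain the tags, and these additional probes were kept as features of their own.

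RNA was measured on 12 oligonucleotide arrays of 1 colour, 3 in each of 4 groups: sgs1Δ with tangeretin, sgs1Δ control, wild type (WT) with tangeretin and WT control. Cells of strain YCL1098 (sgs1Δ), in which kanMX4 replaces SGS1, and of strain YCL1071 (WT) were grown at 30 °C without tryptophan, with 0.2% DMSO in all groups and with 30 µM tangeretin for 4 h in the treated ones. Both strains are MATα, carry the alleles his3Δ1, leu2Δ0, met15Δ0 and ura3Δ0 and an HPH marker at trp1, and hold pRS414, a TRP1 plasmid that places the HO endonuclease under control of the GAL1 promoter. SGS1 encodes a RecQ family DNA helicase, and tangeretin is a polymethoxylated flavone of citrus peel. No label ties the 3 arrays of a group to cultures of their own, and the headers give them 1 sample number, so the p-values may measure technical spread only. In these bulk samples, fewer cells of a kind and less RNA per cell cannot be told apart.

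The yeast ribosome consists of a large subunit, which forms peptide bonds, and a small subunit, which reads the mRNA. Their protein genes are among the most highly transcribed in growing yeast, and most exist as a pair of near-identical copies, A and B, kept from an ancient genome duplication. Rap1, Fhl1, Ifh1, Sfp1 and Hmo1 act at their promoters, and nutrient signals through TOR and protein kinase A set their output.

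SGS1 had a raw intensity of 4 to 7 on the sgs1Δ arrays, where it was not detected, and 108 to 169 on the WT arrays, which goes with the labels. Ribosomal protein probes were among the brightest of the array: the mean raw intensity of the tested members was 699 to 65464, with a median of 30233. Arrays differed in brightness, with a median raw intensity of 1368 to 1530 in sgs1Δ with tangeretin, 928 to 1344 in sgs1Δ control, 780 to 956 in WT with tangeretin and 530 to 814 in WT control. Between 24 and 30 ribosomal protein probes per array lay at the scanner's ceiling in sgs1Δ with tangeretin, 7 to 19 in sgs1Δ control, 4 to 14 in WT with tangeretin and 3 to 10 in WT control. The median ribosomal protein probe was 23.0 to 26.4 times as bright as the median probe on the sgs1Δ arrays and 29.7 to 31.0 times on the WT arrays, before any scaling. RPL32 and RPS6A/RPS6B are also printed 14 times as control spots, and these repeats varied within an array by a coefficient of 13.9 to 29.0% and 13.5 to 19.4%.

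Of the 123 members, 121 passed the detection filter and were tested among 6455 features. RPS13 and the gene probe of RPS21A gave at most 4 and 3 raw units on any array. The additional probe of RPS21A was bright, at 15.53, 15.53 and 15.54 log2 units in sgs1Δ with tangeretin, 15.43, 15.54 and 15.57 in sgs1Δ control, 15.55, 15.60 and 15.61 in WT with tangeretin and 15.59, 15.61 and 15.61 in WT control. Of the tested members, 21 lay at the ceiling on 1 or more arrays, 10 on all arrays of 1 or more groups, and RPS14A on all 12 arrays. For such members only a limit of the level is known, and no fold is given for them. All other values are log2 intensities after quantile normalization, and a difference is called at an adjusted p under 0.05 (limma, Benjamini-Hochberg over all 6455 features).

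In WT cells, tangeretin was followed by higher values of 5 ribosomal protein members, all of the large subunit, and no member was lower. They were RPL24B, RPL16B, RPL41A/RPL41B, RPL19B and RPL31A, by 1.41 to 1.93-fold. These 5 are 4.13% of the 121 members, against 3.24% of all features called in this comparison, 1.80% higher and 1.44% lower. The median member differed by 0.08 log2 units, against -0.03 for all features. With the arrays scaled to their 75th percentile instead, these medians were 0.01 and -0.02. With array brightness as a covariate they were 0.03 and -0.01. The arrays of the groups did not overlap for 34 members, 29 of them higher with tangeretin, which is 28.1% of the members against 24.6% of all features. None of the 48 small subunit and 5 stalk members was called by limma, and 9 and 1 of them were at an unadjusted p under 0.05. The share of all features at that unadjusted threshold was not counted. Such counts, here and below, therefore have no background beside them and are not read as a result. Without WT control replicate 3 there were 23 calls, 19.0% of the members against 26.5% of all features. Without WT control replicate 1 or 2, or WT tangeretin replicate 2 or 3, there were none, against 0.325 to 0.449% of all features.

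**Figure D1:**
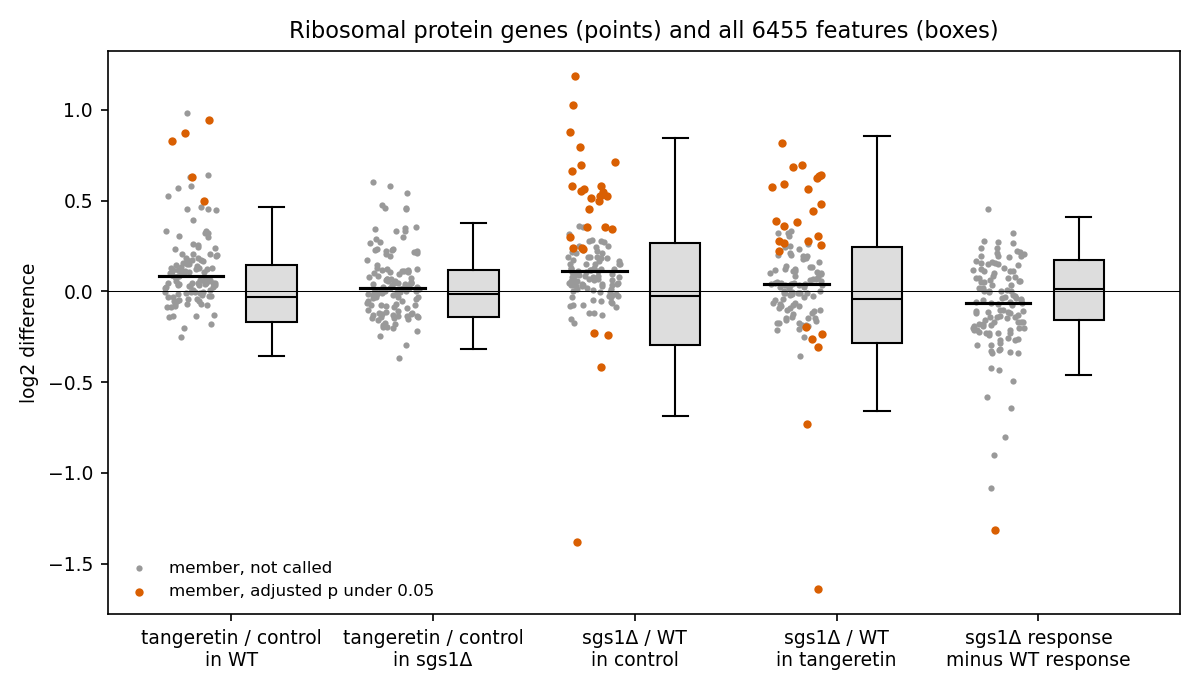
Log2 difference (y axis) of the 121 tested ribosomal protein members (points, orange where called; line, median) beside all 6455 features (boxes from the lower to the upper quartile, whiskers from the 5th to the 95th percentile) in the 5 comparisons. In the strain comparisons the members lie within the whiskers, except RPS3, RPL19B and RPL34B above and RPS9A below in control medium, and RPL24B and RPS9A below in tangeretin.

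RPL24B, which encodes 1 of the copies of a large subunit protein that reaches across to the small subunit, read 9.83, 10.05 and 10.13 in WT with tangeretin, against 8.83, 9.04 and 9.31 in WT control. All 3 treated arrays lay above all 3 control arrays. The difference was 0.95 ± 0.18 (SE, n = 3 arrays each), or 1.93-fold, with an adjusted p of 0.0176. Its copy RPL24A read 14.22, 14.20 and 13.98 with tangeretin, against 14.22, 14.13 and 14.17 in control. Those values overlapped, and the difference was -0.04 ± 0.09 (adjusted p = 0.794).

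RPL16B encodes a large subunit protein of the surface facing the solvent. It read 13.98, 14.42 and 14.40 in WT with tangeretin, against 13.05, 13.24 and 13.88 in WT control, a difference of 0.87 ± 0.19 (adjusted p = 0.0357). The groups did not overlap, although control replicate 3 came close to the lowest treated array. RPL16A differed by 0.47 ± 0.21 and was not called (adjusted p = 0.165). RPL41A/RPL41B, a probe for both genes of the smallest ribosomal protein, read 12.35, 12.73 and 12.39 with tangeretin, against 11.46, 11.57 and 11.96 in control, a difference of 0.83 ± 0.15 (adjusted p = 0.0153). RPL31A, whose protein sits at the exit of the peptide tunnel, read 15.26, 15.30 and 15.46, against 14.72, 14.73 and 15.09 in control, a difference of 0.50 ± 0.11 (adjusted p = 0.0383). In both, the lowest treated array was above the highest control array. RPL31B differed by 0.30 ± 0.13 (adjusted p = 0.157). RPL19B, part of a bridge between the subunits, read 14.36, 14.55 and 14.68 with tangeretin, against 13.80, 13.67 and 14.24 in control, a difference of 0.63 ± 0.14 (adjusted p = 0.0325).

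The widest difference of any member in this comparison, 0.98 ± 0.25 for RPS3, was not called (adjusted p = 0.0518). RPS3, a small subunit protein at the entry of the mRNA channel, read 14.17, 14.75 and 14.31 in WT with tangeretin, against 12.90, 13.57 and 13.82 in WT control, which were also the most scattered values of any member in WT control (SD 0.47, n = 3).

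In sgs1Δ cells, no ribosomal protein member was called with tangeretin (0 of 121), against 1.39% of all features. At an unadjusted p under 0.05, limma gave 20 members, with no share of all features counted at that threshold. The median member differed by 0.02 log2 units and all features by -0.02, and the arrays of the groups did not overlap for 15 members (12.4%), against 24.7% of all features. With 75th percentile scaling the median member was at -0.06 and all features at -0.002. With array brightness as a covariate these medians were -0.05 and -0.007. RPL24B read 8.85, 9.32 and 9.64 in sgs1Δ with tangeretin, against 9.51, 9.52 and 9.88 in sgs1Δ control. These overlapped, with a difference of -0.37 ± 0.18 (adjusted p = 0.258). RPL41A/RPL41B (-0.08 ± 0.15), RPL31A (0.00 ± 0.11) and RPL19B (0.04 ± 0.14) were close to 0, and RPL16B was at 0.54 ± 0.19 (adjusted p = 0.139). Without sgs1Δ control replicate 2, 14 members were called, 11.6% against 11.5% of all features.

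The difference between the strains' responses, tested as an interaction, was called for 1 member, RPL24B, among 121 (0.826%), against 1.27% of all features. The response of RPL24B in sgs1Δ minus that in WT was -1.31 ± 0.26 log2 units (adjusted p = 0.0281). That call was lost when any 1 of 7 arrays was left out, while the value stayed between -1.50 and -1.10. RPL41A/RPL41B (-0.90 ± 0.22, adjusted p = 0.0563), RPS3 (-1.08 ± 0.36, adjusted p = 0.159) and RPS30A (-0.81 ± 0.23, adjusted p = 0.101) followed in size and were not called.

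Both copies of RPL24 were measured on every array, so their difference was also taken within each array. The probes lie far apart in brightness, so scaling that acts by intensity can still move this difference. RPL24B minus RPL24A was -5.38, -4.85 and -4.73 in sgs1Δ with tangeretin and -4.65, -4.81 and -4.27 in sgs1Δ control, a change of -0.41 (exact permutation test, two-sided, p = 0.2). It was -4.39, -4.14 and -3.85 in WT with tangeretin and -5.39, -5.09 and -4.87 in WT control, a change of 0.99 (exact permutation p = 0.1, the smallest that 3 against 3 arrays can give). Only the changes can be read, since the part of the probes themselves in the gap in brightness was not tested. The change in sgs1Δ minus that in WT was -1.40. The SD of the within-array difference, pooled over the 4 groups, was 0.29, which is a spread between arrays and no SE. The value of -1.40 moved between -1.53 and -1.20 when any array was left out and between -1.53 and -1.40 under the other settings. The additional probes of the copies did not show this split. There the change in sgs1Δ minus that in WT was 0.06 for RPL24B minus RPL24A. The interaction of RPL24B alone was -0.11 (limma, adjusted p = 0.686). These probes were at the ceiling on 6 arrays for RPL24B and on 5 for RPL24A.

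**Figure D2:**
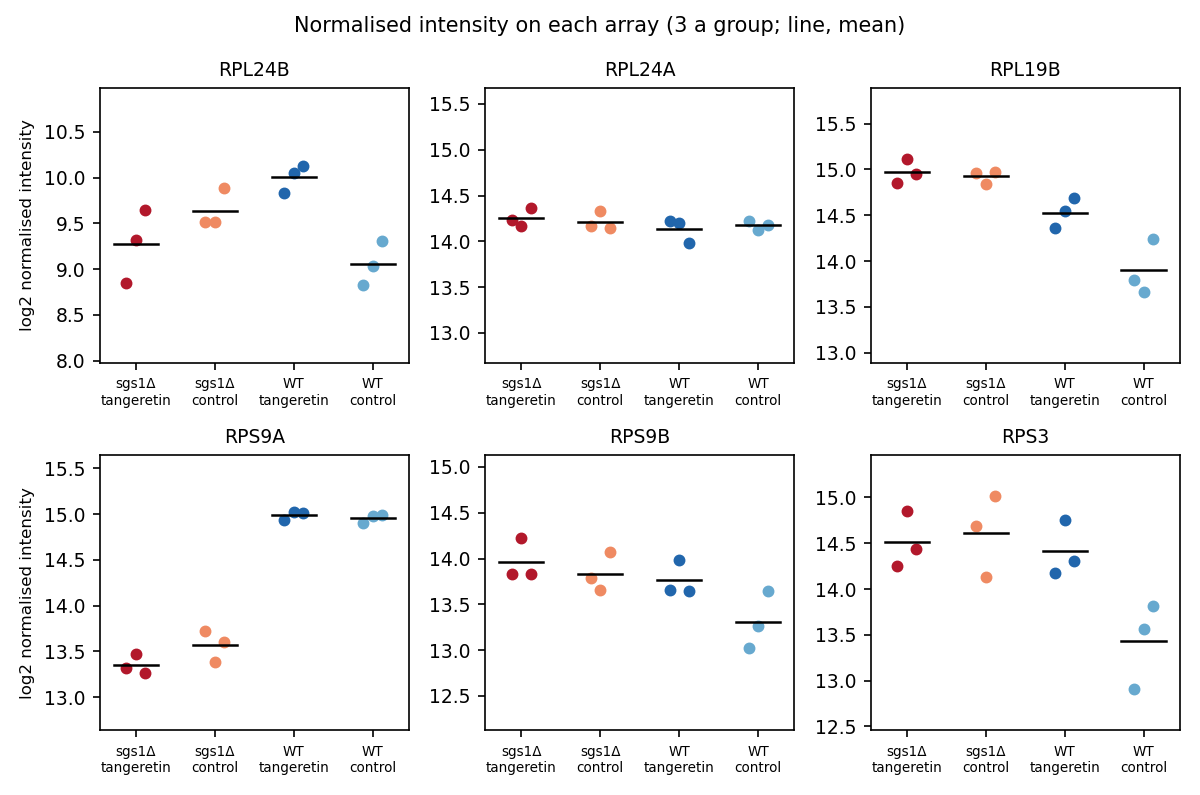
Log2 normalised intensity (y axis) on each array (points) and the group mean (line) for 6 members in sgs1Δ with tangeretin, sgs1Δ control, WT with tangeretin and WT control, each panel spanning 3 log2 units. RPL24B is high in WT with tangeretin and low in WT control, RPL24A is level, and RPS9A separates the strains with or without tangeretin.

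Between the strains in control medium, 28 of the 121 members were called (23.1%), 24 higher and 4 lower in sgs1Δ, against 48.0% of all features. By direction, 21.3% of all features were called higher and 26.7% lower. The median member was 0.11 log2 units higher in sgs1Δ, against -0.03 for all features, but under 75th percentile scaling, which does not equalise the brightest probes, the median member was at -0.16 and the calls were 12 higher and 38 lower. The direction of the members as a group is therefore not settled by these arrays. With the brightness of the array as a covariate, 2 members were called, RPS9A and RPL19B, against 12.5% of all features. Without WT control replicate 1 or 2 there were 15 calls (12.4%, against 38.1 and 36.4% of all features), and without sgs1Δ control replicate 3 there were 17 (14.0%, against 40.2%). The arrays did not overlap for 31 members (25.6%), against 51.5% of all features.

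The member that differed most was RPS9A, 1 of the copies for a small subunit protein near the mRNA entry that is known for its part in decoding accuracy. It read 13.73, 13.38 and 13.60 in sgs1Δ control, against 14.90, 14.98 and 14.98 in WT control. The groups lay far apart, with a difference of -1.38 ± 0.10, or 2.61-fold lower in sgs1Δ (adjusted p = 1.33e-07). Under tangeretin RPS9A read 13.32, 13.47 and 13.27 in sgs1Δ, against 14.94, 15.02 and 15.01 in WT, a difference of -1.64 ± 0.10 (3.11-fold lower, adjusted p = 1.96e-08). RPS9A was called lower in sgs1Δ under all 25 alternatives of each strain comparison. Its copy RPS9B, a gene of chromosome II, went the other way in control medium, at 13.78, 13.65 and 14.07 in sgs1Δ, against 13.03, 13.26 and 13.64 in WT, a difference of 0.52 ± 0.17 (adjusted p = 0.0188). That call was lost with 75th percentile scaling (0.39, adjusted p = 0.0625), with array brightness as a covariate (0.21, adjusted p = 0.683), and without WT control replicate 1 or 2 or sgs1Δ control replicate 3 (0.38, 0.50 and 0.41). In tangeretin RPS9B differed by 0.20 ± 0.17 (adjusted p = 0.351). The additional probes of both genes gave the same directions: -0.67 ± 0.22 and -0.97 ± 0.22 for RPS9A in control medium and tangeretin (adjusted p = 0.0232 and 0.00277), and 0.84 ± 0.20 and 0.51 ± 0.20 for RPS9B (adjusted p = 0.00409 and 0.0561). Among the 3 genes on each side of RPS9A on chromosome XVI, RPL21B was at 0.56, SEN54 at 0.56 and MOT1 at 0.37 in control medium, all called higher in sgs1Δ, and no neighbour was called lower; these neighbours were chosen after their values were seen.

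Other members that rose in sgs1Δ control were led by RPS3, at 14.69, 14.13 and 15.02 in sgs1Δ, against 12.90, 13.57 and 13.82 in WT. The groups did not overlap, and the difference was 1.18 ± 0.25 (2.27-fold, adjusted p = 0.00188). RPL19B read 14.96, 14.84 and 14.97 in sgs1Δ, against 13.80, 13.67 and 14.24 in WT, a difference of 1.03 ± 0.14 (2.04-fold, adjusted p = 4.96e-05), and it was called under all 25 alternatives. Its gene lies on chromosome II, where most features were higher in sgs1Δ. RPL34B, a large subunit protein, rose by 0.88 ± 0.22 (adjusted p = 0.00497), with its arrays at 12.71, 13.62 and 13.20 in sgs1Δ, against 12.20, 12.01 and 12.68 in WT. RPL41A/RPL41B rose by 0.80 ± 0.15 (adjusted p = 0.000956). RPP2B, a protein of the stalk that recruits elongation factors, read 13.84, 14.10 and 13.95 in sgs1Δ, against 13.17, 13.04 and 13.55 in WT, a difference of 0.71 ± 0.15 (adjusted p = 0.00194), whereas its copy RPP2A was at 0.11 ± 0.15 (adjusted p = 0.567). RPL31A rose by 0.51 ± 0.11 (adjusted p = 0.00230), beside 0.50 with tangeretin in WT, and RPL24B by 0.58, beside 0.95. The comparisons share the WT control arrays.

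Besides RPS9A, 3 members fell in sgs1Δ control. RPS28B, a small subunit protein near the mRNA exit, read 14.61, 14.62 and 14.63 in sgs1Δ, against 15.10, 15.09 and 14.92 in WT, a difference of -0.41 ± 0.09 (adjusted p = 0.00231). Its additional probe was at -0.38 ± 0.08 (adjusted p = 0.00129), and its copy RPS28A at 0.22 ± 0.10 (adjusted p = 0.0792). RPS22A fell by 0.24 and RPL1A/RPL1B, the protein of the stalk at the exit site for transfer RNA, by 0.23 on the log2 scale (adjusted p = 0.0363 and 0.0340).

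Under tangeretin, 26 of the 121 members differed between the strains (21.5%), 20 higher and 6 lower in sgs1Δ, against 45.5% of all features, 20.4% higher and 25.1% lower. The median member was 0.04 log2 units higher in sgs1Δ and all features stood at -0.04. With 75th percentile scaling the median member was at -0.23 and the calls were 8 higher and 54 lower. With array brightness as a covariate, 2 members were called, RPS9A and RPL24B, against 17.5% of all features. Without sgs1Δ tangeretin replicate 3, or without WT tangeretin replicate 1, there were 11 calls (9.09%, against 37.3 and 37.7% of all features). The arrays did not overlap for 50 members (41.3%), against 57.4% of all features. For 3 of the 26, RPS11B, RPL12B and RPS14A, all sgs1Δ arrays were at the ceiling.

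RPL13B, a large subunit protein, had the widest rise, at 14.76, 14.78 and 14.84 in sgs1Δ with tangeretin, against 13.77, 14.10 and 14.05 in WT with tangeretin. The groups did not overlap, and the difference was 0.82 ± 0.17 (adjusted p = 0.00145), while RPL13A was at -0.13 ± 0.11 (adjusted p = 0.382). RPL34B rose by 0.69 ± 0.22, the shared probe RPL19A/RPL19B by 0.68 ± 0.13, the stalk gene RPP1B by 0.64 ± 0.16 and RPL23A/RPL23B by 0.64 ± 0.14 (adjusted p of 0.000894 to 0.0192). RPL34B turned to -0.16 with array brightness as a covariate. RPL24B read 8.85, 9.32 and 9.64 in sgs1Δ, against 9.83, 10.05 and 10.13 in WT, a difference of -0.73 ± 0.18 (adjusted p = 0.00472) that was called under all 25 alternatives. In control medium its difference had the other sign, 0.58 ± 0.18 (adjusted p = 0.0173). The additional probe of RPL24B, at the ceiling on 6 arrays, did not show this change of sign. It was at 0.04 in tangeretin and 0.15 in control medium, neither called (adjusted p = 0.699 and 0.153). None of the 25 alternatives used that probe for RPL24B. RPL36A fell by 0.31, RPS28B by 0.27 and RPL17B, a protein that lines the peptide tunnel, by 0.23 on the log2 scale (adjusted p of 0.0114 to 0.0296).

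The 2 lists of strain calls shared 13 members, 46.4% of the 28 in control medium and 50% of the 26 in tangeretin. The share of all features called in both was not counted, so this overlap has no background beside it. Of these, 12 had the same direction: RPL13B, RPL16A, RPL19B, RPL21B, RPL23A/RPL23B, RPL26A, RPL34B, RPS4B, RPS19A and RPS19B were higher in sgs1Δ, and RPS9A and RPS28B were lower. RPL24B had opposite directions at its gene probe. The additional probes of RPS19A (-0.29 in control medium and -0.47 in tangeretin), RPS19B (-0.46 and -0.44) and RPL26A (-0.07 and -0.05) lay below 0 in both. Those of RPL13B, RPL19B, RPS9A and RPS28B kept the direction of the gene probe, and those of RPL16A, RPL21B and RPS4B changed sign between the comparisons. The 2 comparisons use different arrays.

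Of the paralogue pairs, 40 had a probe for each copy. The changes of the copies differed by a median of 0.13 log2 units with tangeretin in WT, 0.21 with tangeretin in sgs1Δ, 0.17 between the strains in control medium and 0.23 in tangeretin. With tangeretin in WT, 3 pairs had 1 copy called (RPL24, RPL16 and RPL31) and no pair had both. Between the strains, 17 pairs in control medium and 18 in tangeretin had 1 copy called, 1 pair each had both copies called in the same direction, and 1 pair each had them called in opposite directions. Of the 103 members with 2 gene copies, 25.2% were called in control medium and 24.3% in tangeretin, against 48.0% and 45.5% of all features. Whether the pair counts differ from what such shares alone would give was not tested. The opposite pairs were RPS9 in control medium and RPL17 in tangeretin, where RPL17A was 0.38 ± 0.10 higher in sgs1Δ (adjusted p = 0.00808) and RPL17B 0.23 lower. The additional probes did not show the RPL17 split. That of RPL17A, at the ceiling on 6 arrays, was at -0.05 and that of RPL17B at 0.03, neither called (adjusted p = 0.609 and 0.834). The changes of the copies differed by 1.91 log2 units for RPS9 in control medium and 1.83 in tangeretin, and the within-array difference of the copies did not overlap between the strains in either (exact permutation p = 0.1 each). RPS30 also split under tangeretin at the gene probes, with RPS30B at 0.56 ± 0.18 (adjusted p = 0.0226) and RPS30A at -0.25 ± 0.16 (adjusted p = 0.217). The additional probes did not show that split, at -0.31 for RPS30B and -0.17 for RPS30A, neither called (adjusted p = 0.282 and 0.219). Whether a probe reads its own copy alone was not tested, since the probe sequences were not used here.

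**Figure D3:**
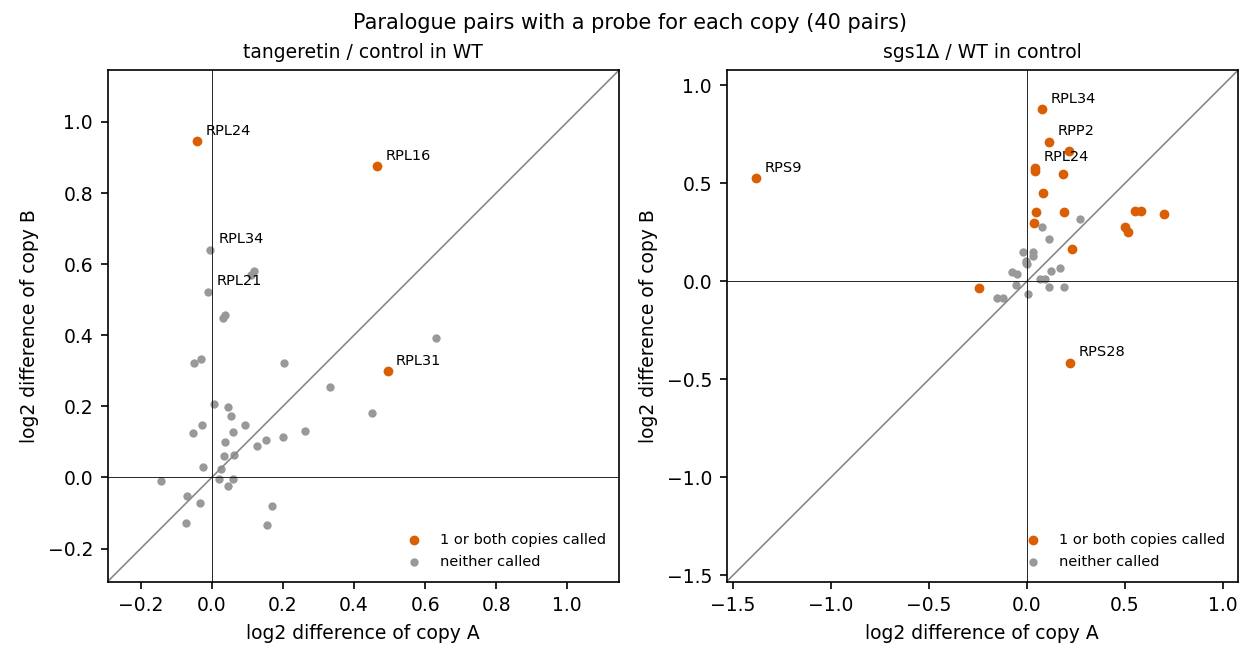
Log2 difference of copy B (y axis) against copy A (x axis) for 40 paralogue pairs, with tangeretin in WT (left) and between sgs1Δ and WT in control medium (right); orange marks pairs with 1 or both copies called, and the grey line marks equal changes. RPL24 lies far above the line on the left, and RPS9 stands alone at the upper left on the right.

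The additional probes gave 0 limma calls among 95 with tangeretin in either strain and none in the interaction. Of all features, 3.24% were called in WT, 1.39% in sgs1Δ and 1.27% in the interaction. At an unadjusted p under 0.05, where no share of all features was counted, there were 17 additional probes in WT, 7 in sgs1Δ and 8 in the interaction. Between the strains 23 were called in control medium (17 higher and 6 lower in sgs1Δ) and 25 in tangeretin (10 higher and 15 lower), which is 24.2% and 26.3% of them, against 48.0% and 45.5% of all features. For 69 genes with a gene probe of their own and an additional probe, the probes had the same sign for 47 genes with tangeretin in WT, 39 with tangeretin in sgs1Δ, 37 between the strains in control medium and 40 in tangeretin. Over these 69 genes Pearson's r between the probes was 0.00, 0.25, 0.30 and 0.29 in these comparisons. The points share arrays and scaling, and 19 of the genes have a probe at the ceiling; over the other 50 genes r was 0.18, 0.22, 0.41 and 0.33.

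Between the strains in control medium, 6 genes were called by both probes, all in the same direction: RPS9A and RPS28B lower, and RPS9B, RPL19B, RPL13B and RPS4B higher in sgs1Δ. The additional probe of RPL19B was at 0.77 ± 0.14 (adjusted p = 0.000566) and that of RPL13B at 0.44 ± 0.17 (adjusted p = 0.0447). In tangeretin 5 genes were called by both, and RPS19A went in opposite directions, with 0.59 at the gene probe and -0.47 ± 0.12 at the additional probe (adjusted p = 0.00493). In that comparison 16 genes were called by the gene probe alone and 10 by the additional probe alone. RPS11B, whose gene probe was at the ceiling, was called higher in sgs1Δ by its additional probe, by 1.13 ± 0.18 in control medium and 0.91 ± 0.18 in tangeretin (adjusted p = 0.000266 and 0.00136). Of the 5 rises with tangeretin in WT, RPL31A had no additional probe among the 95. Those of RPL41A and RPL41B were at 0.24 ± 0.13 and 0.54 ± 0.22 and were not called (adjusted p = 0.231 and 0.143). That of RPL24B was at the ceiling on 6 of the 12 arrays and stood at 0.11 (adjusted p = 0.390), and that of RPL16B was at the ceiling on 7. That of RPL19B was at 0.37 ± 0.14 (adjusted p = 0.119).

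**Figure D4:**
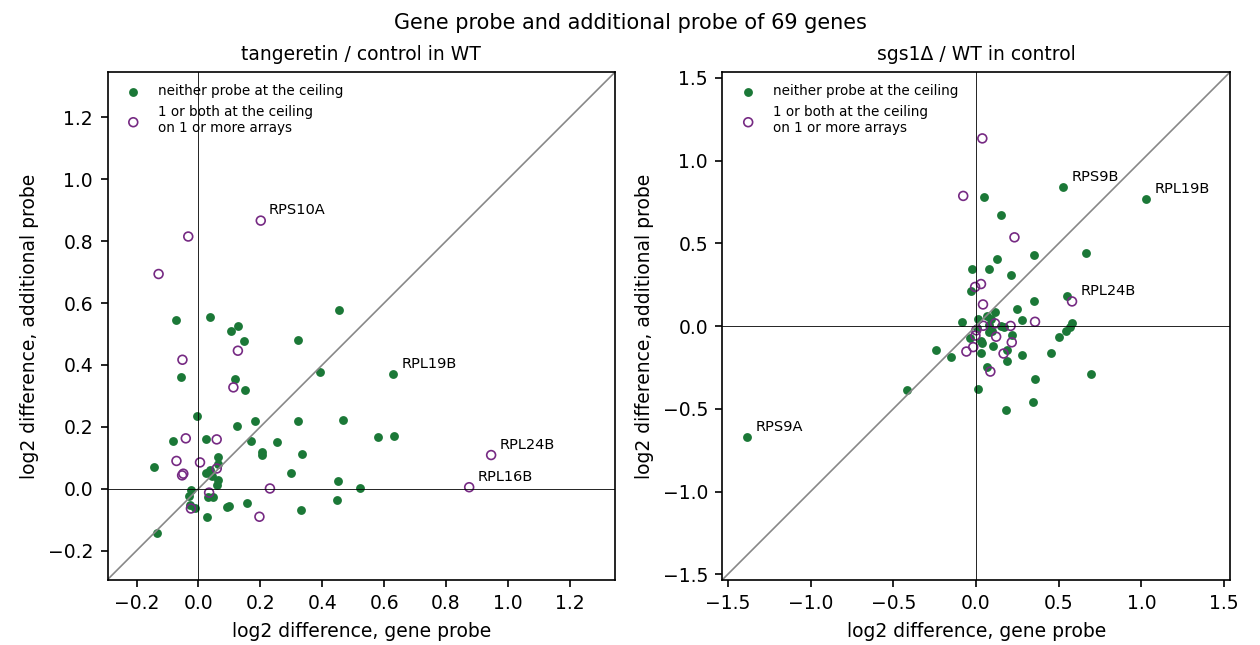
Log2 difference at the additional probe (y axis) against the gene probe (x axis) of 69 ribosomal protein genes, with tangeretin in WT (left) and between sgs1Δ and WT in control medium (right); open circles mark genes with a probe at the scanner's ceiling. RPL24B and RPL16B lie near 0 on the y axis at the left, and RPS9A, RPS9B and RPL19B have the same sign at both probes on the right.

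The size of the differences went with the brightness of the probe. In the 31 dimmest members (mean raw intensity 699 to 20276), the median absolute difference between the strains in control medium was 0.21 log2 units, and 11 members were called, all higher in sgs1Δ. In the 30 brightest (47143 to 65464), it was 0.06, and 2 were called. Of the 37 other features in that range 16.2% were called, with a median absolute difference of 0.05, against 50.4% and 0.30 for the 3469 other features in the range of the dimmest members. With tangeretin in WT, the 31 dimmest had a median absolute difference of 0.23 and 3 calls, against 0.16 and 2.85% called among the other features of that range. The 30 brightest had 0.07 and no limma call, against 0.04 and 0% of the 37 other features. The part of the ceiling in the small changes of bright members was not tested.

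**Figure D5:**
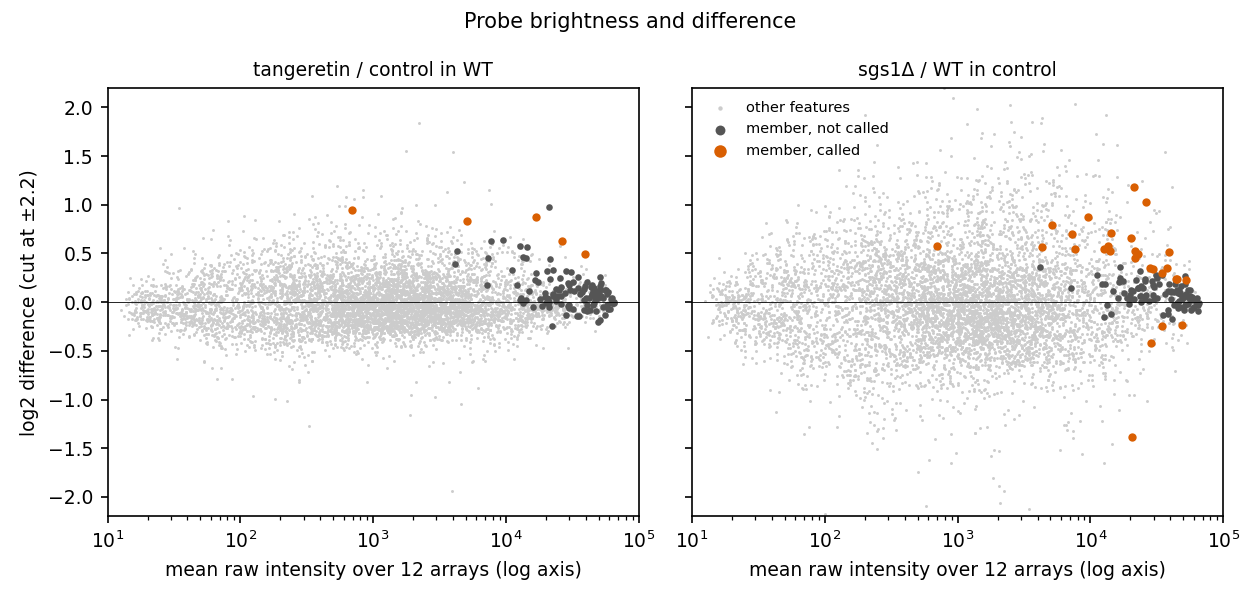
Log2 difference (y axis) against mean raw intensity over the 12 arrays (x axis, log scale) for ribosomal protein members (dark grey, orange where called) and other features (light grey), with tangeretin in WT (left) and between sgs1Δ and WT in control medium (right). Members crowd at the bright end, where all features spread less, and the called members lie mostly among the dimmer ones.

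Chromosome II as a whole was higher in sgs1Δ: its 418 other features had a median difference of 0.73 in control medium and 0.67 in tangeretin, with 84.2% and 80.9% called. Of the called members, 5 of 28 in control medium (RPL19B, RPL23A/RPL23B, RPL32, RPS6A/RPS6B and RPS9B) and 4 of 26 in tangeretin (RPL19B, RPL23A/RPL23B, RPS11B and RPL19A/RPL19B) have their probe on that chromosome, and all are higher in sgs1Δ. The members RPL19B and RPL19A/RPL19B have a gene in common and are not separate cases. The 5 members with 1 name on chromosome II had a median of 0.24 in control medium and 0.20 in tangeretin, and the 98 elsewhere 0.11 and 0.04. The 8 additional probes of chromosome II stood at 0.68 and 0.50. The part of the chromosome in the values of RPL19B and RPS9B was not tested.

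None of the 25 measured regulators of ribosomal protein genes was called by limma with tangeretin in either strain, and 6 in WT and 2 in sgs1Δ were at an unadjusted p under 0.05. Of all features, 3.24% were called with tangeretin in WT and 1.39% in sgs1Δ. RAP1, whose product binds most ribosomal protein promoters, was at 0.76 in WT (adjusted p = 0.0544), and IFH1, FHL1 and SFP1 were called in no comparison. Between the strains, 10 regulators were called in control medium (6 higher and 4 lower in sgs1Δ, 40% against 48.0% of all features) and 8 in tangeretin (4 higher and 4 lower, 32% against 45.5%). HMO1, a high mobility group protein of these promoters, fell by 0.35 in both. DOT6, a repressor of ribosome biogenesis genes, fell by 1.26 in control medium and 1.07 in tangeretin, and its relative TOD6, which lies on chromosome II, rose by 1.10 in control medium. The kinase gene SCH9 fell by 0.51 and 0.41, and TOR1 rose by 0.57 and 0.62.

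None of the 25 chaperones of ribosomal proteins was called by limma with tangeretin, and 10 in WT and 7 in sgs1Δ were at an unadjusted p under 0.05. Of all features, 3.24% were called with tangeretin in WT and 1.39% in sgs1Δ. Between the strains, 13 were called in control medium, 5 higher and 8 lower in sgs1Δ, and 12 in tangeretin, 1 higher and 11 lower. These are 52% and 48% of the chaperones, against 48.0% and 45.5% of all features, and the medians were -0.10 and -0.29, against -0.03 and -0.04. NAP1 fell by 0.61 and SSZ1 rose by 0.74 in control medium, and FAP7, which serves Rps14, fell by 0.79, RRB1, which serves Rpl3, by 0.61 and the export factor ARX1 by 0.52 in tangeretin. YAR1, the chaperone of Rps3, fell by 0.53 in control medium, where RPS3 rose. Of 38 translation factor features, TIF6 was called with tangeretin in WT, at 0.35 (adjusted p = 0.0490), and none in sgs1Δ, where 11 were at an unadjusted p under 0.05. The 1 call in WT is 2.63% of the translation factor features, against 3.24% of all features. Between the strains 13 were called in control medium, 5 higher and 8 lower, and 16 in tangeretin, 2 higher and 14 lower, which is 34.2% and 42.1%, below the 48.0% and 45.5% of all features. SUP45, the release factor gene on chromosome II, rose by 1.54 and 1.74, and TIF4632, a scaffold of the cap-binding complex, fell by 0.65 and 0.71. Of 17 other proteins bound to the ribosome, TMA10 fell by 0.51 with tangeretin in WT (adjusted p = 0.00580), and in sgs1Δ against WT it rose by 0.80 in control medium and 1.27 in tangeretin. With tangeretin in WT this 1 call is 5.88% of the 17, against 3.24% of all features. In the strain comparisons 5 of the 17 were called each time (29.4%, also below the share of all features), 1 higher and 4 lower.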

How the data were processed

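Gene expression was measured on 12 arrays, 3 for each of 4 groups. Per the file headers, the deposited table holds the raw intensity of each spot, with its background already subtracted, since the 2158 empty spots centre on 0, and a flag of another kind whose value 0 was read as detected. The authors also deposited log2 values normalized between arrays; these served as an alternative. Neither that method nor the scanner program is named in any label or header.

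From the intensity values, 6958 probes were used and 684 control spots left out. Negative values were raised to 0, 50 was added as an offset, arrays were quantile normalized and log2 was taken (limma 3.58.1, R 4.3.3). Probes detected on fewer than 3 arrays (301) were left out. Where a gene had several probes, that of highest mean was used, and tagged additional probes stayed separate, which left 6455 features. An intensity of 65378 or more counted as at the scanner's ceiling. One lmFit and eBayes model held all 4 groups, without covariates (8 residual degrees of freedom), with two-sided p-values adjusted by Benjamini-Hochberg over all features of a comparison and calls at an adjusted p under 0.05. The fit was tested on simulated data. Errors of differences are SE. Precision is limited by the 3 arrays per group.

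The members, the 4 lists of other genes and the alternatives were chosen with earlier results of these data known. The text names RPL24A and RPL24B, up to 5 rises and 5 falls by size among called members of each comparison, all members called in the interaction, up to 5 paralogue pairs per comparison with discordant calls, up to 3 called genes of each list, and IFH1, FHL1, SFP1, RAP1 and HMO1. Other names were chosen after their values were seen. RefSeq R64 gave symbols, neighbours and chromosomes. Where it held no chromosome for a gene, the systematic name was used, and no sequence was used. Alternatives covered offset, scaling, the deposited values, filters, the choice of probe, groups in the fit, replicate block, variance moderation, array weights, array brightness and each array left out. The correlations between the deviations of same-numbered arrays ran from -0.42 to 0.50. With 3 arrays a group they cannot settle whether the numbers pair the samples, and no label says so.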

Additional observations from a re-analysis of the deposited data

Results flagged for a closer look

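The tangeretin response of RPL24B differed between the strains by a test of the difference itself. It was -0.37 in sgs1Δ and 0.95 in WT, and the interaction was -1.31 ± 0.26 (adjusted p = 0.0281). At the additional probe of RPL24B, which was at the ceiling on 6 arrays, the interaction was -0.11 (adjusted p = 0.686). Among the proteins bound to the ribosome, RBG2, a GTP-binding protein, met the same criterion: its response was -0.28 in sgs1Δ and 0.26 in WT, and the interaction was -0.54 (adjusted p = 0.0370). Neither gene was called with tangeretin in sgs1Δ, and RBG2 was not called in WT (adjusted p = 0.0814).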

How the results depend on the processing

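The counts of called members under each setting are given here for tangeretin in WT (5), tangeretin in sgs1Δ (0), the strains in control medium (28), the strains in tangeretin (26) and the interaction (1). The count for tangeretin in WT was 2 without an offset (1.12% of all features called) and 2 with the authors' deposited values (1.16%). It was 8 with cyclic loess (3.32% of all features) and 8 with trended robust variances (3.64%). With only the groups of the comparison in the fit it was 1 (0.806% of all features). It was 36 with array weights and 0 with array brightness as a covariate (0.0930% of all features). The count for tangeretin in sgs1Δ was 31 with array weights. The strains in control medium had 50 calls (12 higher, 38 lower) with 75th percentile scaling, 54 (48 higher, 6 lower) with array weights and 2 (1 higher, 1 lower) with array brightness. The strains in tangeretin had 62 (8 higher, 54 lower) with 75th percentile scaling and 2 (none higher) with array brightness. The interaction had 0 without an offset and with the deposited values, 2 with trended robust variances and with array brightness, and 26 with array weights. Of all features 0.697% and 0.667% were called in the interaction without an offset and with the deposited values. With trended robust variances and array brightness these shares were 1.53% and 3.27%. With array weights 41.7, 24.3, 65.4, 53.7 and 23.7% of all features were called, and 29.8, 25.6, 44.6, 30.6 and 21.5% of the members. With 75th percentile scaling 53.0 and 51.0% of all features were called between the strains, and 41.3 and 51.2% of the members. With a replicate block the counts were 11, 0, 27, 25 and 2. Of all features 7.56, 1.24, 48.6, 46.5 and 1.78% were then called, and of the members 9.09, 0, 22.3, 20.7 and 1.65%. Whether the replicate numbers pair the samples is not known. With 1 array left out the counts ran from 0 to 23, 0 to 14, 15 to 40, 11 to 32 and 0 to 7. At the highest counts 19.0, 11.6, 33.1, 26.4 and 5.79% of the members were called, against 26.5, 11.5, 52.7, 47.6 and 5.61% of all features. At the lowest strain counts 12.4 and 9.09% of the members were called, against 36.4 to 38.1% and 37.3 to 37.7% of all features. RPL24B minus RPL24A in the interaction ran from -1.53 to -1.20 with arrays left out and from -1.53 to -1.40 otherwise. RPL34B between the strains in tangeretin turned to -0.16 (adjusted p = 0.718) with array brightness. Array brightness follows the groups, so brightness and group cannot be told apart fully; where a count moved, the cause was not tested. Chosen after seeing the data were taking the highest-mean probe under the ceiling, with counts of 5, 0, 28, 27 and 1, and leaving out the members with 1 name on chromosome II, with 4, 0, 25, 24 and 1. Of all features 3.22, 1.39, 48.1, 45.5 and 1.27% were called with the former choice. The latter left the calls of all features unchanged. An offset of 16, no detection filter, leaving out the dimmest 25% of genes and the mean of a gene's probes left every count within 1.5 times. The scanner's ceiling limits what bright members can show.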

Other observations

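PBR1, which lies close to RPS3 on chromosome XIV and is no ribosomal protein gene, differed by -0.51 with tangeretin in sgs1Δ (adjusted p = 0.0893) and by 0.81 in WT (adjusted p = 0.0137). Its interaction was -1.32 (adjusted p = 0.0139). It was chosen after its values were seen. RPS3 had the same signs, at -0.10 in sgs1Δ and 0.98 in WT, and was not called in these comparisons. The other 4 measured neighbours within 3 genes of RPS3 (IPI3, RHO5, MRPL22 and TDA7) had interactions of -0.21 to 0.04, none called.

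The additional probe of RPS10A, a small subunit gene, read 8.97, 9.59 and 10.21 in sgs1Δ with tangeretin, 9.37, 9.79 and 10.02 in sgs1Δ control, 9.98, 10.10 and 10.10 in WT with tangeretin and 9.17, 9.02 and 9.39 in WT control. The WT groups did not overlap and the sgs1Δ groups did. Its interaction of -1.01 ± 0.34 was not called (adjusted p = 0.160).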
